A study of Homo sapiens with 12 samples.

Results

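The genes described here encode the nuclear-encoded subunits of oxidative phosphorylation, the machinery of the mitochondrial inner membrane that turns the oxidation of fuels into ATP. They were taken by name: every gene whose symbol begins with NDUFA, NDUFB, NDUFC, NDUFS, NDUFV, UQCR, COX4I, COX5, COX6, COX7, COX8 or ATP5, together with the SDH genes and CYC1, and without the NDUFAF assembly factors. Only probe sets annotated to a single symbol were used, and each gene was represented by the probe set with the highest mean over the arrays. This gave 83 symbols out of 19775 genes, of which 78 are protein-coding and 5 are pseudogenes or non-coding RNAs that share the prefix. The 78 coding genes comprised 33 of complex I, 3 of complex II, 7 of complex III, 17 of complex IV and 18 of complex V. SDHB, NDUFS5, NDUFS8, NDUFC2 and UQCRH were not analysed here. The genes now named COXFA4 and COXFA4L2, which were formerly NDUFA4 and NDUFA4L2, fall outside the name rule and are mentioned only once below.

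Complex I (NADH dehydrogenase) and complex II (succinate dehydrogenase) pass electrons to ubiquinone. Complex III (the cytochrome bc1 complex) carries them on to cytochrome c, and complex IV (cytochrome c oxidase) passes them to oxygen. Complexes I, III and IV pump protons, and complex V, the ATP synthase, uses the resulting gradient. A few core subunits of complexes I, III, IV and V are encoded by mitochondrial DNA, whereas the genes described here are transcribed in the nucleus, where NRF1, GABPA (a member of the ETS family), YY1, the estrogen-related receptors, the PGC-1 coactivators and MYC are known to act on them. Clear cell kidney cancers that have lost VHL are known for stabilised hypoxia-inducible factors and a metabolism shifted towards glycolysis.

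The study used RCC4 and UMRC2, established human kidney cancer cell lines with low endogenous FoxO1 and FoxO3. Each line stably expressed 1 of 3 constructs under puromycin selection: the ERT2 estrogen receptor moiety alone, called EV, or a fusion of ERT2 to FoxO1(TA) or FoxO3(TA), in which the 3 AKT sites are alanine. The fusions stay in the cytoplasm until 4-hydroxytamoxifen (4OHT) brings about their entry into the nucleus. All 6 engineered lines received 100 nM 4OHT or ethanol vehicle for 12 h and were each measured on 1 Affymetrix U133 Plus 2.0 array per treatment, 12 arrays in all. No combination was repeated, so the 2 cell lines serve as replicates for a construct. The p-values of the FoxO and 4OHT comparisons rest on how alike the construct effects were in the 2 lines. Those of RCC4 against UMRC2 rest on the spread among the 3 engineered lines of each cell line. For the line difference in the FoxO response, the p-values rest on how alike FoxO1 and FoxO3 acted within a line. In each fit limma also drew a gene's spread towards that of genes of similar level. For the FoxO and 4OHT comparisons this prior carried 5.46 degrees of freedom, against 2 from the gene itself. None of these p-values measures the spread of repeat cultures.

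Levels are log2 intensities after quantile normalisation, and a response is the level with 4OHT minus that with vehicle in 1 engineered line. The deposited medians ran from 71.1 to 138.7, and the spike-in probe sets had geometric means between 5063 and 5604 in 5 RCC4 arrays but between 2735 and 2957 in the 6 UMRC2 arrays and in the RCC4 FoxO3 array with 4OHT. After normalisation they lay between 3324 and 4177, and the 3' to 5' ratio of GAPDH was 0.917 to 1.05. Of 11 measured kidney tubule and carcinoma markers, PAX8, CDH2, VIM, KRT8 and KRT18 were at or above the array median (log2 6.62) in all 12 arrays. PAX2 was so in 11, CDH6 in 10, COXFA4L2 in 9, KRT19 and EPCAM in 6 each and LHX1 in 0. Of the proximal tubule genes LRP2 was at or above it in 11 arrays, AQP1 in 6 and CUBN and SLC34A1 in 0. The leukocyte genes PTPRC, CD14 and LYZ, the endothelial genes CDH5 and VWF and the fibroblast gene LUM were below it in all 12, with CD14 and CDH5 at the lower limit of log2 4.17. CD3E was at or above it in 9 arrays, COL1A2 in 8, and PECAM1, COL1A1 and DCN in all 12.

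Of the 78 coding genes, 74 passed the filter on dim probe sets (at or above the array median in at least 2 arrays) and 72 were at or above that median in all 12 arrays. COX7A1, the isoform known from heart and skeletal muscle, sat at the lower limit in all 12 arrays. COX8C and COX7B2, known from the testis, and ATP5MF, whose only probe set of a single symbol was dim, were not tested either. COX8C reached at most log2 5.77 and COX7B2 ran from 4.29 to 6.70. All counts that follow are over the 74 tested genes.

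Promoter sequences were available from RefSeq (GRCh38.p14) for 66 of the 78 coding genes, in 79 windows of 300 bases from 250 before to 50 after an annotated start. The windows are shown here for 4 genes that passed the test under FoxO3 and for NDUFA8, which differed most between the cell lines. Each line runs 5' to 3' on the gene's strand and ends 10 bases after the start. Capitals mark matches, on either strand, to the NRF1 core (GCATGCG), the ETS core (CCGGAAG), the GC box of SP1 (GGGCGG), the E-box of MYC and MAX (CACGTG), the FoxO site (GTAAACA) or the YY1 core (AAGATGG). COX5A lies at chr15:74938064-74938323 (minus strand), NDUFS3 at chr11:47578824-47579083 (plus), the first of the 2 NDUFS1 windows at chr2:206159435-206159694 (minus), ATP5F1E at chr20:59032326-59032585 (minus) and NDUFA8 at chr9:122159770-122160029 (minus).
COX5A: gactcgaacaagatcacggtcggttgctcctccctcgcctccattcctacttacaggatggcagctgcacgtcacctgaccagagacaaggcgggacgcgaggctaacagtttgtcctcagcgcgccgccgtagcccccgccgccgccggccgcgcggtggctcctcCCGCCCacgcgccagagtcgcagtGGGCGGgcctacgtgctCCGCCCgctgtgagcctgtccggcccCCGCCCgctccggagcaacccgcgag
NDUFS3: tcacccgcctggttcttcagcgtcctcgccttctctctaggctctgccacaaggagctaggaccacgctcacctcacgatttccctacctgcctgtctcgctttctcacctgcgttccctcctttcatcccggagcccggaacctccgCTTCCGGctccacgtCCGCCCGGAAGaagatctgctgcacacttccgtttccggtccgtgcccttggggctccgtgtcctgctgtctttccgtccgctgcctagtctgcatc
NDUFS1: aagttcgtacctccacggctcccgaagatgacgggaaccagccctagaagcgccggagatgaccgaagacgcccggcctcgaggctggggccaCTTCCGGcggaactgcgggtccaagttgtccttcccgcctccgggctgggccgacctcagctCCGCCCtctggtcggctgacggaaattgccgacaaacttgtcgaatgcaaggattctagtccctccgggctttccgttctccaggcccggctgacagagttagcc
ATP5F1E: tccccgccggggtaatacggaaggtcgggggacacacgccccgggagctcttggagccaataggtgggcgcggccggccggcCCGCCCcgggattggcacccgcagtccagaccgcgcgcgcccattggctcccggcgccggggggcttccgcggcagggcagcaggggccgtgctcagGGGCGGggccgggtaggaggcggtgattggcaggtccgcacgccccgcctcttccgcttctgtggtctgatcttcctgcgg
NDUFA8: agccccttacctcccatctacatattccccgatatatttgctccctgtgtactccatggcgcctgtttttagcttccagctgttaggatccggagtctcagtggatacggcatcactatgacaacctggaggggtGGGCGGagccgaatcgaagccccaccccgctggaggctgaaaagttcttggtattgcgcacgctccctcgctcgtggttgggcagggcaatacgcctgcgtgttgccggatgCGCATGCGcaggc

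The NDUFS3 window held 2 ETS cores, the second of them overlapping its GC box, and the NDUFS1 window held 1 of each. COX5A had 4 GC boxes and ATP5F1E had 2. The NDUFA8 window had 1 GC box and, next to the start, 2 overlapping NRF1 cores on opposite strands. No FoxO site, E-box or YY1 core was found in these 5 stretches. Over the 79 windows of the coding genes, the ETS core was present in 25.3%, against 10.3% of all 35116 windows and 12.8% of those of protein-coding genes. The NRF1 core was present in 17.7% against 3.91% and 4.63%, and the YY1 core in 22.8% against 5.84% and 6.04%. The GC box was in 62% against 45% and 56.3%, and the E-box in 8.86% against 7.26% and 8.34%. The FoxO site was in the COX7A2L window alone, which is 1.27%, against 3.42% and 2.85%. These are matches of letters in short windows and were not tested.

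The first question was what FoxO activation did to these transcripts beyond 4OHT itself. With FoxO1 and FoxO3 averaged, 1 subunit gene rose and 1 fell relative to EV. ATP5F1E, the small epsilon subunit of the ATP synthase rotor stalk, rose by log2 0.52 ± 0.10 (SE, adjusted p = 0.0199 by limma), and CYC1, the cytochrome c1 subunit of complex III, fell by 0.56 ± 0.12 (adjusted p = 0.0346). That is 2.7% of the 74 genes, while 7.81% of all 14283 genes tested were called (3.09% higher, 4.73% lower). The median difference was 0.06 for the subunits and -0.05 for all genes. Without the RCC4 EV pair, the UMRC2 EV pair or the UMRC2 FoxO1 pair of arrays no subunit gene was called, without the RCC4 FoxO1 pair 1 was, and without the UMRC2 FoxO3 pair 4 were. Where a pair was left out, the share of all genes called was lower in fits with fewer subunits called and higher in those with more. No subunit was called either without scaling (1.29% of all genes), with each array scaled to its median (6.76%) or with probe sets averaged per gene (3.38%). Without the filter on dim probe sets or with a constant prior variance, 0 subunits and 0 of all genes were called.

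FoxO3 alone gave 5 called subunits and FoxO1 alone gave none. Under FoxO3, NDUFS1 and ATP5F1E rose and CYC1, COX5A and NDUFS3 fell. This was 6.76% of 74, against 16.6% of all genes tested (6.6% higher, 10% lower). Under FoxO1, 12 genes of all (0.084%) were called, and 4 subunits and 1430 genes had an unadjusted p under 0.05. The direct comparison of FoxO3 with FoxO1 called 0 subunits (10 with an unadjusted p under 0.05) and 5.81% of all genes (2.16% higher, 3.65% lower), so none of the 5 was shown to respond differently to the isoforms. CYC1 came nearest among these 5, with a difference of -0.56 ± 0.14 (adjusted p = 0.0584). The FoxO1 and FoxO3 comparisons share the EV arrays. Without the UMRC2 EV pair no subunit was called under FoxO3, without the RCC4 EV pair 3 were and without the UMRC2 FoxO3 pair 8 were. The share of all genes called was lower in each fit without a pair than with all pairs. With each array scaled to its median 1 subunit was called, CYC1 (15.4% of all genes), and none without scaling (4.08% of all genes). With a constant prior variance or without the filter, 0 subunits and 0 of all genes were called. With probe sets averaged per gene 4 subunits were called (11.4% of all genes), of which CYC1 was the 1 shared with these 5. The RCC4 FoxO3 array with 4OHT is the RCC4 array with the low deposited spike-in mean (2936): without that pair 4 subunits were called, 3 of them among these 5, and NDUFS1 (adjusted p = 0.0919) and NDUFS3 (adjusted p = 0.173) were not. In UMRC2, where these means lay between 2735 and 2957, the FoxO3 minus EV values were -0.92 for CYC1, -0.67 for COX5A, -0.53 for NDUFS3, 0.71 for NDUFS1 and 0.79 for ATP5F1E. The UMRC2 arrays were part of the fit that called these 5 genes, so their values are not separate evidence.

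**Figure D1:**
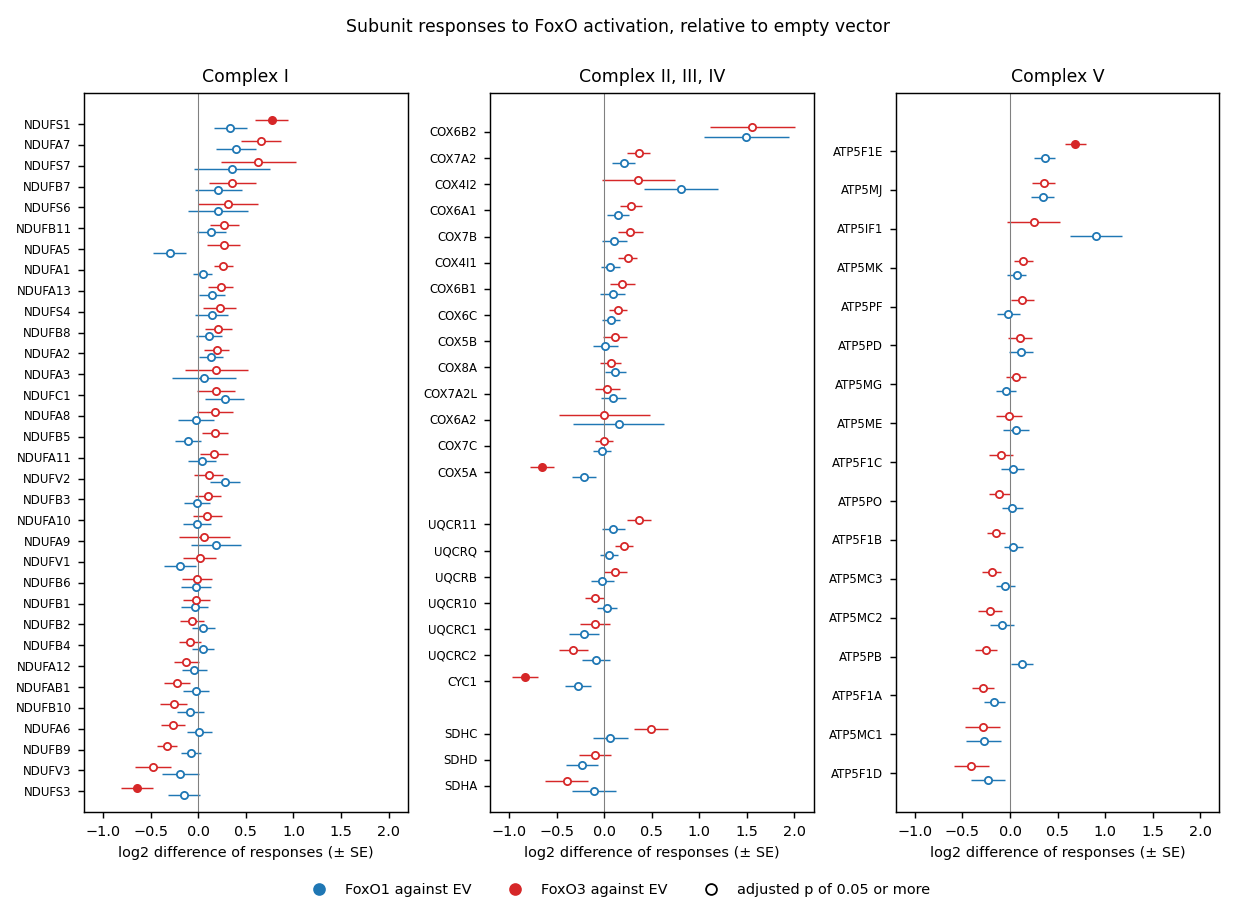
Difference between the FoxO and EV responses (log2, ± SE from limma) of each of the 74 tested subunit genes for FoxO1 (blue) and FoxO3 (red), by complex and ordered by the FoxO3 value. Filled points have an adjusted p under 0.05: NDUFS1, NDUFS3, COX5A, CYC1 and ATP5F1E, all under FoxO3.

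CYC1 carries the heme that hands electrons to cytochrome c. In RCC4 its level was 12.87 with vehicle and 12.88 with 4OHT in EV cells, 12.83 and 12.73 in FoxO1 cells, and 12.84 and 12.11 in FoxO3 cells. In UMRC2 the same pairs were 12.29 and 12.39, 12.21 and 11.87, and 12.18 and 11.35. The FoxO3 array with 4OHT was the lowest of each cell line. Relative to EV the FoxO3 response was -0.75 in RCC4 and -0.92 in UMRC2, and the fitted difference was -0.84 ± 0.14 (adjusted p = 0.00709).

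COX5A, a nuclear-encoded subunit of complex IV on the matrix side, had levels of 13.16 and 13.31 in RCC4 EV cells, 13.14 and 13.19 in FoxO1 cells and 13.25 and 12.76 in FoxO3 cells with vehicle and 4OHT. In UMRC2 they were 12.44 and 12.57, 12.45 and 12.25, and 12.42 and 11.88. Again the FoxO3 array with 4OHT was the lowest of its cell line. The FoxO3 difference from EV was -0.65 ± 0.13 (adjusted p = 0.0128), and a second COX5A probe set gave -0.69.

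NDUFS3 belongs to the peripheral arm of complex I, in the module that meets ubiquinone. Its levels with vehicle and 4OHT were 12.10 and 11.98 in RCC4 EV, 11.82 and 11.68 in RCC4 FoxO1, and 11.95 and 11.07 in RCC4 FoxO3 cells. UMRC2 gave 11.99 and 12.10, 12.01 and 11.84, and 11.91 and 11.50. The FoxO3 difference was -0.64 ± 0.17 (adjusted p = 0.0377), with single-line values of -0.76 and -0.53. It lost its call when the cell line term was left out (adjusted p = 0.0609).

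NDUFS1, the largest subunit of complex I, which carries iron-sulfur clusters of the NADH-oxidising module, moved the other way. Its levels were 11.56 and 11.45 in RCC4 EV, 11.40 and 11.49 in RCC4 FoxO1, and 11.28 and 12.00 in RCC4 FoxO3 cells. In UMRC2 they were 10.83 and 10.57, 10.86 and 11.09, and 10.92 and 11.38. The FoxO3 array with 4OHT was the highest of each cell line. The FoxO3 difference was 0.77 ± 0.17 (adjusted p = 0.0229). Of its other bright probe sets, 3 gave 0.89, 0.44 and 0.29, and 1 gave -0.30, and with the mean of all its probe sets the difference was 0.42 (adjusted p = 0.253).

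ATP5F1E had levels of 13.56 and 13.41 in RCC4 EV, 13.39 and 13.53 in RCC4 FoxO1 and 13.37 and 13.79 in RCC4 FoxO3 cells. In UMRC2 they were 13.13 and 12.99, 13.02 and 13.31, and 12.95 and 13.59. Every FoxO line rose with 4OHT and both EV lines fell, by 0.15 each. The difference from EV was 0.68 ± 0.11 under FoxO3 (adjusted p = 0.00659) and 0.37 ± 0.11 under FoxO1 (adjusted p = 0.341).

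**Figure D2:**
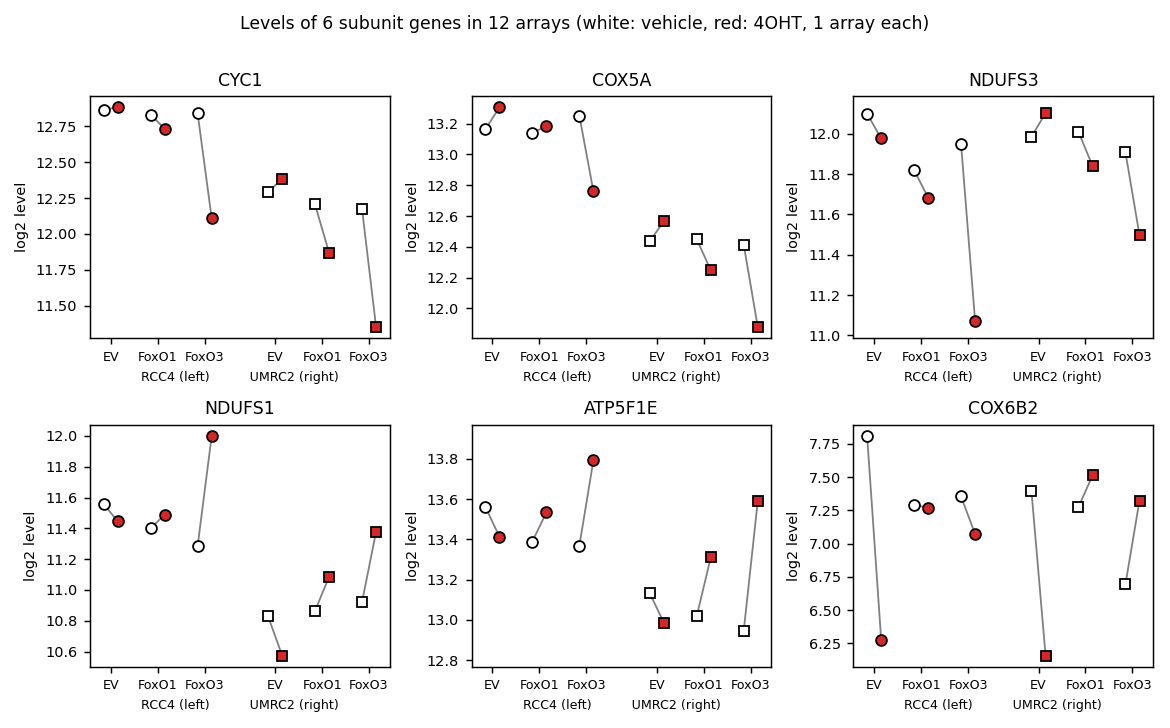
Normalised log2 level of 6 subunit genes in each of the 12 arrays, with 1 array per point (white vehicle, red 4OHT) and lines joining the pair of each engineered line. CYC1, COX5A and NDUFS3 are lowest and NDUFS1 and ATP5F1E highest in the FoxO3 4OHT array of each cell line, while for COX6B2 the low points are the EV arrays with 4OHT.

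By complex, the median FoxO minus EV difference was 0.08 for complex I, -0.17 for complex II, -0.04 for complex III, 0.12 for complex IV and -0.04 for complex V. Under FoxO3 alone these medians were 0.16, -0.10, -0.10, 0.17 and -0.10, with all genes at -0.07. Most members of complex I (22 of 33) and complex IV (12 of 14) had FoxO3 values above 0, and 10 of 17 of complex V had values below 0. Over all genes tested, 6497 of 14283 were above 0 and 7786 below 0, so the split of complex V lay near that of all genes. Within complex I the NDUFA genes had a FoxO3 median of 0.18, the NDUFB and NDUFC genes 0.05 and the NDUFS and NDUFV genes 0.17. These medians are small beside the shift that scaling brings: without scaling, the median of all genes under FoxO3 moved from -0.07 to -0.42 and that of the subunits from 0.10 to -0.27. A complex median is therefore to be read beside that of all genes on the same values, not by its sign alone. For FoxO against EV the median of all genes was -0.05, close to complexes III and V at -0.04.

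By the 1 probe set used for each, the subunit genes changed little in size. Some others moved further: the 55 other bright probe sets of 31 subunits had FoxO3 minus EV values from -1.64 (NDUFA10) to 2.51 (NDUFC1). One of NDUFA11 gave 1.66. The probe sets used for these 3 genes gave 0.10 (NDUFA10), 0.19 (NDUFC1) and 0.16 (NDUFA11). Under FoxO3 the median size of the difference from EV, sign set aside, was 0.21 for the subunits and 0.46 for all genes, and under FoxO1 it was 0.11 and 0.27. A value of at least log2 1 in any of the 4 single-line comparisons occurred for 3 subunits (4.05%: ATP5IF1, COX6B2 and NDUFS7) and for 43.6% of all genes. Subunit transcripts are bright on the arrays, and among the 718 genes at or above the subunits' median level of log2 12.36 this share was 16.7%, with 0 of the 37 subunits there. The median size under FoxO3 was 0.28 for those 718 genes and 0.19 for those 37 subunits. In the same 718 genes 31.6% were called under FoxO3, and 3 of those 37 subunits were. Of the 74 subunits, 19 (25.7%) were above 0 and 10 (13.5%) below 0 in all 4 single-line values, against 15.9% and 20.7% of all genes.

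Within complex II, SDHC, a membrane anchor, had the highest FoxO value at 0.28 ± 0.16 and SDHA, the flavoprotein, the lowest at -0.25 ± 0.20, with SDHD, the other anchor, at -0.17. None was called. SDHC under FoxO3 was 0.49 ± 0.18 (adjusted p = 0.116). In complex III, UQCR11 was the highest at 0.23 ± 0.11 and the core subunits UQCRC1 and UQCRC2 stood at -0.16 and -0.21. The other bright probe set of UQCR11 gave -0.35.

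Paralogous isoforms in complex IV were compared as pairs. COX4I1, the common isoform, was at 13.58 to 13.89 in all 12 arrays and had a FoxO difference of 0.16 ± 0.09. The other bright probe sets of COX4I1 gave 0.17 and -0.62. COX4I2, the isoform known for its response to low oxygen, had a difference of 0.58 ± 0.33 (adjusted p = 0.357). Its response was -0.78 in RCC4 EV and -0.69 in UMRC2 EV cells, and 0.02 and -0.25 in the RCC4 FoxO1 and FoxO3 cells and 0.13 and -0.50 in those of UMRC2.

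COX6B2, a testis isoform of COX6B, had the largest difference of all 74 genes, 1.53 ± 0.39, and missed the threshold (adjusted p = 0.0558). Its level fell from 7.81 to 6.28 in RCC4 EV and from 7.39 to 6.16 in UMRC2 EV cells. With vehicle and 4OHT it was 7.29 and 7.27 in RCC4 FoxO1, 7.36 and 7.07 in RCC4 FoxO3, 7.28 and 7.51 in UMRC2 FoxO1 and 6.69 and 7.32 in UMRC2 FoxO3 cells. The difference thus lay mostly in the EV arrays, and its level was close to the array median. COX6B1 was at 0.14 ± 0.11.

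COX6A1 and COX6A2 differed from EV by 0.21 ± 0.10 and 0.08 ± 0.41, COX7A2 and COX7A2L by 0.29 ± 0.10 and 0.06 ± 0.11, COX7B by 0.19 ± 0.11 and COX8A by 0.09 ± 0.10, and none was called. The other bright probe set of COX7B gave -0.66. The subunit c genes of complex V, which encode the same mature ring protein, were at -0.28 ± 0.16 (ATP5MC1), -0.15 ± 0.11 (ATP5MC2) and -0.12 ± 0.09 (ATP5MC3), also without a call. Under FoxO3 alone ATP5MC3 was at -0.20 ± 0.10, and its other bright probe sets gave -0.18 and -1.15.

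In complex V the catalytic subunits ATP5F1A and ATP5F1B stood at -0.23 ± 0.10 and -0.06 ± 0.08. ATP5F1D, the delta subunit of the rotor, had the lowest value at -0.32 ± 0.16 (adjusted p = 0.283), and its other bright probe set gave -0.90. ATP5IF1, the inhibitor that binds the synthase when the gradient collapses, had the highest at 0.58 ± 0.24 (adjusted p = 0.201), with single-line values of 0.32 and -0.01 for FoxO1 and FoxO3 in RCC4 and 1.48 and 0.51 in UMRC2. Its EV response was 0.08 in RCC4 and -0.72 in UMRC2. Its other bright probe sets gave 0.10 and -0.24.

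4OHT alone called none of the 74 subunits and 0 genes in all in EV cells (3 subunits and 339 genes with an unadjusted p under 0.05). The median EV response of the subunits was -0.04, and 50 of 74 were below 0. Over all genes tested the median was 0.003, and 7024 of 14283 were below 0. The difference between RCC4 and UMRC2 in the FoxO response called 0 subunits and 0 genes as well (1 subunit and 338 genes with an unadjusted p under 0.05). NDUFA9 and NDUFS7 had the largest values, at -1.06 and 1.41. This line difference came from a separate fit, where the 2 isoforms served as repeats and each line had 1 EV response. Any difference between the isoforms thus counted as error. For CYC1 the standard error was 0.53, against 0.12 for FoxO against EV. The absence of calls therefore does not show that the lines responded alike.

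Without 4OHT the subunit genes differed between the cell lines. Over the 3 vehicle arrays of each line, 44 of 74 were higher in RCC4 and 12 were higher in UMRC2. That is 75.7% called, against 51.4% of all genes (27.3% higher in RCC4, 24.1% lower). The median difference was 0.31 for the subunits and 0.06 for all genes. The split depends on the scaling: it was 70 higher and 1 lower with the values as deposited, where 74.3% of all genes were called and their median was 0.77. It was 52 and 3 with each array scaled to its median (52.1%, median 0.12) and 42 and 6 with scaling to the spike-in probe sets (49.4%, median -0.08). With probe sets averaged per gene the split was 40 and 7 (48.7%, median 0.05). Another bright probe set was below 0 for COX7B (-1.92), ATP5MG (-1.51), NDUFB1 (-0.52), ATP5MC3 (-0.34) and NDUFA10 (-0.055), all called higher. Further ones of ATP5MG (0.338 and 0.215), ATP5MC3 (0.58) and NDUFA10 (0.46) were above 0. Among genes called lower, 1 was above 0 for NDUFA6 (0.18), ATP5PO (0.09) and NDUFA11 (0.05). The 3 engineered lines of a cell line stand as its replicates.

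The vehicle arrays of the cell lines differ in their deposited spike-in level, so on them cell line and array level cannot be told apart. The FoxO3 arrays with 4OHT had similar deposited spike-in means (2936 in RCC4 and 2781 in UMRC2), and there the subunits' median RCC4 minus UMRC2 difference was 0.34, against 0.29 in the FoxO3 vehicle arrays. Over all genes tested these medians were 0.02 and 0.06. Of the 44 subunit genes called higher in RCC4, 43 were above 0 in the FoxO3 4OHT arrays, and of the 12 called lower, 9 were below 0. The same share over all called genes was not counted. The FoxO3 4OHT arrays are 1 array per cell line, with FoxO3 active and on the same normalised values. With the 4OHT arrays, which mix 3 constructs, in place of the vehicle arrays 18 of 74 subunits and 13.7% of all genes were called.

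**Figure D3:**
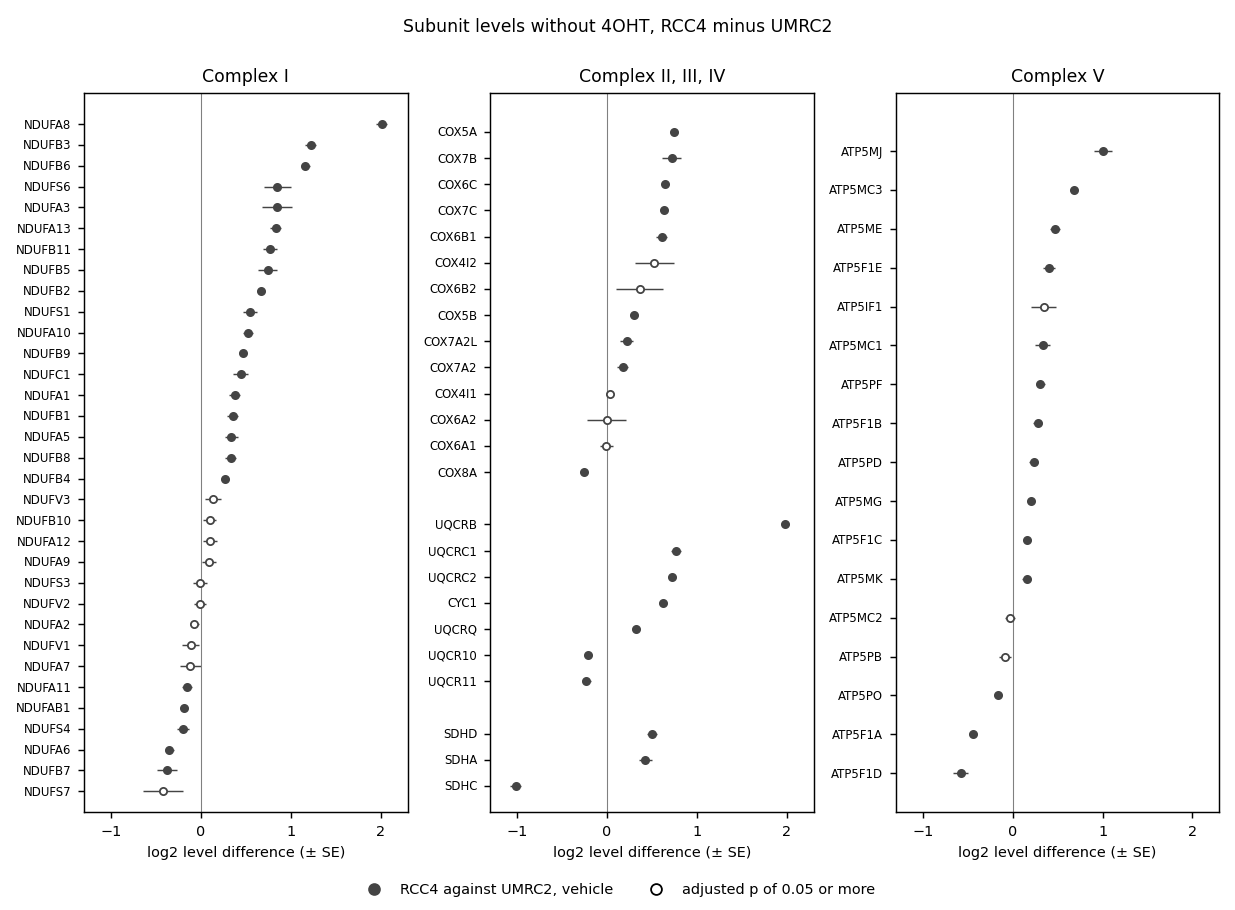
RCC4 minus UMRC2 difference in log2 level (± SE from limma) over the vehicle arrays for the 74 tested subunit genes, by complex. Filled points have an adjusted p under 0.05, 44 above 0 and 12 below 0, with NDUFA8 and UQCRB farthest to the right and SDHC farthest to the left.

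Every complex had more subunits higher in RCC4 than lower. The numbers higher and lower were 18 and 5 of 33 for complex I (median 0.33), 2 and 1 of 3 for complex II (0.43), 5 and 2 of 7 for complex III (0.62), 8 and 1 of 14 for complex IV (0.33) and 11 and 3 of 17 for complex V (0.23). Of 12 NDUFB and NDUFC genes, most of them accessory subunits of the membrane arm, 10 were higher and 1 lower, while of 8 NDUFS and NDUFV genes, most of them in the peripheral arm, 2 were higher and 1 lower. Of 13 NDUFA genes 6 were higher and 3 lower. The difference between these families was not tested.

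NDUFA8, an accessory subunit with twin cysteine motifs on the intermembrane side of complex I, had vehicle levels of 12.16, 12.07 and 12.09 in the RCC4 EV, FoxO1 and FoxO3 lines. The UMRC2 lines gave 10.16, 10.08 and 10.04, so the groups were far apart. The difference was 2.01 ± 0.06 (adjusted p = 8.8e-08). UQCRB, which helps bind ubiquinone in complex III, was at 13.72, 13.75 and 13.75 in RCC4 and 11.68, 11.77 and 11.82 in UMRC2. Its difference was 1.98 ± 0.05 (adjusted p = 3.27e-08), and 2 other bright probe sets gave 1.85 and 2.27. In the FoxO3 4OHT arrays UQCRB differed by 1.86 and NDUFA8 by 1.47.

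Next came NDUFB3 (1.22 ± 0.06) and NDUFB6 (1.16 ± 0.05), membrane-arm subunits of complex I. NDUFB3 was at 12.77 to 12.91 in the RCC4 vehicle arrays and 11.55 to 11.69 in those of UMRC2. ATP5MJ, a small membrane subunit of the synthase, differed by 1.002 ± 0.101, but a second probe set gave 0.01. NDUFS6 (0.85), NDUFA3 (0.85), NDUFA13 (0.83), UQCRC1 (0.77) and NDUFB11 (0.77) completed the 10 largest. CYC1 (0.62 ± 0.05) and COX5A (0.75 ± 0.05) were also higher in RCC4.

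SDHC was the subunit furthest in the other direction. Its vehicle levels were 10.51, 10.52 and 10.58 in RCC4 and 11.62, 11.50 and 11.52 in UMRC2. The difference was -1.01 ± 0.06 (adjusted p = 2.75e-06), its 6 other bright probe sets ran from -0.86 to -1.53, and it was -0.74 in the FoxO3 4OHT arrays. SDHA (0.43 ± 0.07) and SDHD (0.50 ± 0.05) were higher in RCC4, the opposite direction within complex II.

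ATP5F1D (-0.58 ± 0.09) and ATP5F1A, the alpha subunit of the catalytic head (-0.44 ± 0.04), were lower in RCC4, while ATP5F1B, the beta subunit, was higher (0.28 ± 0.05). These directions held with each array scaled to its median, but without scaling ATP5F1D became 0.19 and ATP5F1A 0.53, and with the mean of its probe sets ATP5F1A became 0.55. The remaining 7 of the 10 largest decreases were NDUFB7 (-0.38), NDUFA6 (-0.35), COX8A (-0.26), UQCR11 (-0.23), UQCR10 (-0.21), NDUFS4 (-0.20) and NDUFAB1 (-0.19), and all 7 turned positive without scaling, COX8A, UQCR11, UQCR10 and NDUFAB1 also with each array scaled to its median. Another bright probe set of NDUFA6 gave 0.18.

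**Figure D4:**
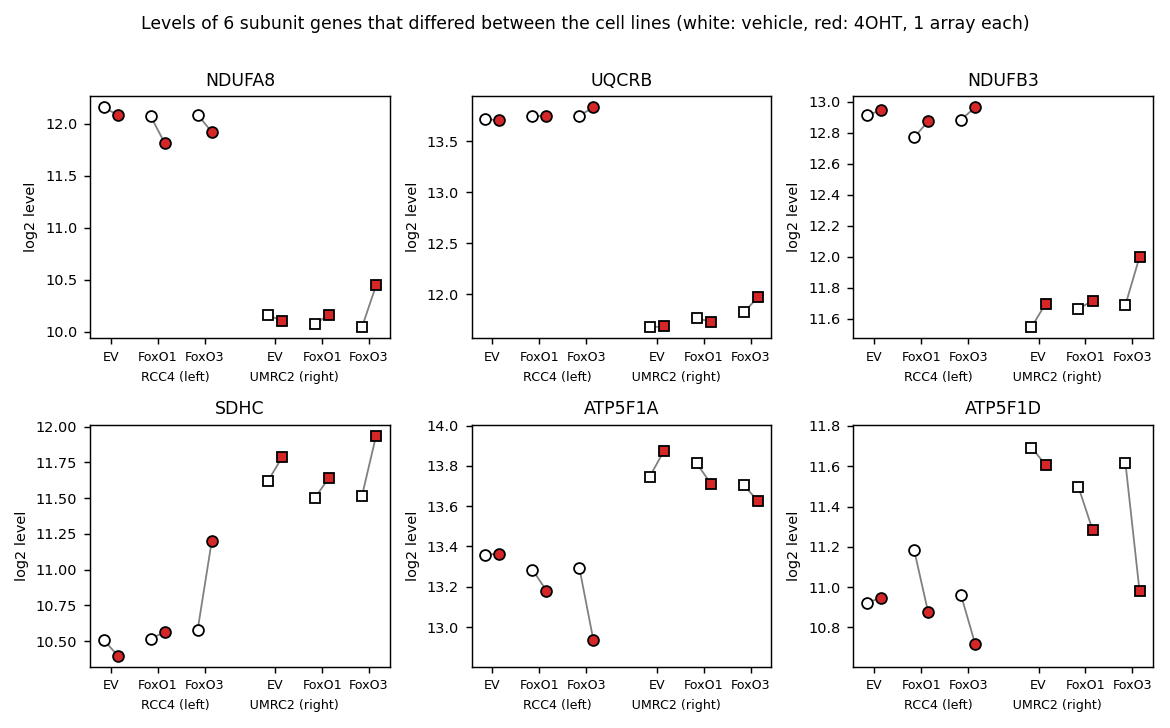
Normalised log2 level of 6 subunit genes that differed between the cell lines in each of the 12 arrays, with 1 array per point (white vehicle, red 4OHT). NDUFA8, UQCRB and NDUFB3 are higher in all 6 RCC4 arrays, and SDHC and ATP5F1A are higher in all 6 UMRC2 arrays. For ATP5F1D the UMRC2 FoxO3 array with 4OHT (10.98) lies below the highest RCC4 array (11.19).

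COXFA4L2, the hypoxia-inducible paralog formerly grouped with complex I, lay between 12.79 and 13.23 in UMRC2 and between 5.88 and 7.08 in RCC4, a vehicle difference of -6.31 ± 0.19 (adjusted p = 8.34e-08). COXFA4 differed by 0.42 ± 0.05 the other way. Neither was called in a FoxO comparison. Of the 5 non-coding symbols, COX6A1P1 was dim and not tested. The antisense RNA NDUFB2-AS1 had the largest FoxO value of the other 4, -1.31 ± 0.61 (adjusted p = 0.252), and none of them was called in any comparison.

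Of 13 known regulators of subunit genes that were tested, 1 was higher and 4 lower under FoxO3 against EV, where 6.6% of all genes were higher and 10% lower. None of these calls held without the filter on dim probe sets or with a constant prior variance, where 0 of all genes were called. PPRC1, a coactivator of the PGC-1 family, differed by -2.69 ± 0.25 (adjusted p = 0.00146) and PPARGC1B, another member, by -2.25 ± 0.46 (adjusted p = 0.0156). MYC differed by -2.46 ± 0.36 (adjusted p = 0.00505), its antagonist MXI1 by 1.34 ± 0.22 (adjusted p = 0.00715) and YY1 by -0.81 ± 0.15 (adjusted p = 0.00992). PPARGC1A was at -1.25 ± 0.39 under FoxO3 (adjusted p = 0.0696) and was called with both isoforms (-1.48 ± 0.34, adjusted p = 0.041). NRF1 (-0.72 ± 0.28), ESRRA (-0.61 ± 0.23), TFAM, the packaging and transcription factor of mitochondrial DNA (-0.57 ± 0.27), and GABPA (-0.04 ± 0.25) were not called.

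PPRC1 fell from 9.83 to 6.99 in RCC4 FoxO3 and from 9.93 to 7.65 in UMRC2 FoxO3 cells with 4OHT. In FoxO1 cells it went from 10.03 to 9.23 and from 9.85 to 9.02, and in EV cells from 9.75 to 9.77 and from 9.97 to 10.20. All 4 FoxO lines were lower with 4OHT and neither EV line was.

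**Figure D5:**
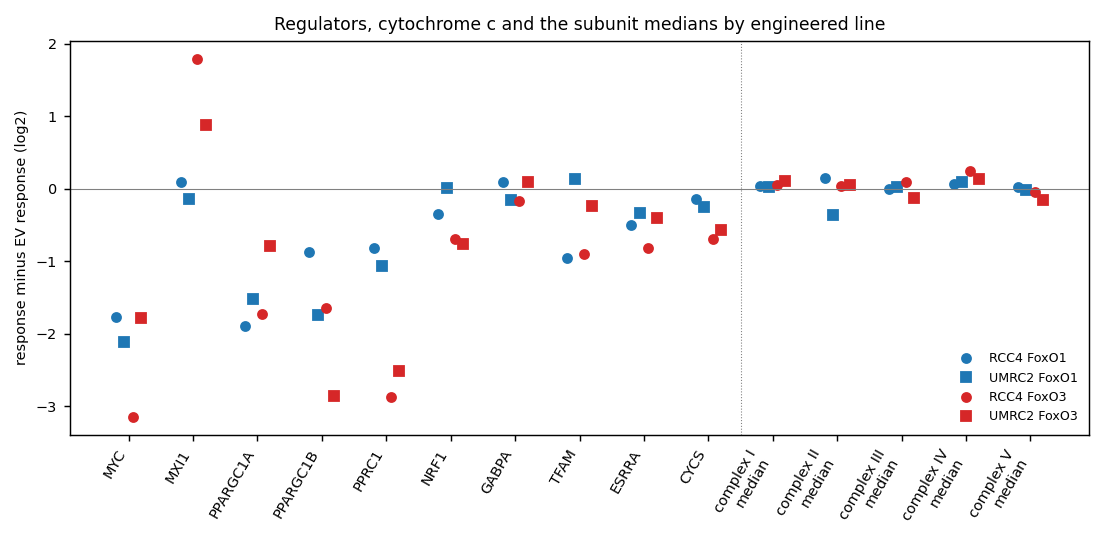
Response minus EV response (log2) in the 4 single-line comparisons (blue FoxO1, red FoxO3, circles RCC4, squares UMRC2) for 10 genes of the regulator, transcription and electron carrier lists and for the median of each complex. MYC, PPRC1, PPARGC1A and PPARGC1B are below 0 in all 4 comparisons, while the complex medians stay between -0.36 and 0.24.

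Partner genes outside the complexes gave these counts under FoxO3. Of 55 tested assembly factors 2 were higher and 9 lower (median -0.24), a share near the 16.6% of all genes called. NDUFAF4, a complex I assembly factor, was at -1.60 ± 0.27 (adjusted p = 0.00823), SCO2, which brings copper to complex IV, at -1.54 ± 0.24 (adjusted p = 0.00616), and LRPPRC, which stabilises mitochondrial mRNAs, at -1.09 ± 0.17 (adjusted p = 0.00588). The complex III factors LYRM7, TTC19 and UQCC1 were lower, and NDUFAF1 (0.76 ± 0.21) and SURF1 (0.87 ± 0.19), factors of complexes I and IV, were higher.

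Of 15 electron carrier genes 1 was higher and 5 lower, and of 12 mitochondrial transcription and replication genes 0 were higher and 4 lower, again beside 6.6% and 10% of all genes. CYCS, cytochrome c itself, the partner of CYC1, went from 14.15 to 13.39 in RCC4 FoxO3 and from 13.90 to 13.21 in UMRC2 FoxO3 cells, and from 14.23 to 14.16 and 13.93 to 13.81 in the EV cells. Its difference was -0.63 ± 0.10 (adjusted p = 0.00647). COQ8A and PDSS1, of ubiquinone synthesis, were at -2.36 ± 0.30 (adjusted p = 0.00306) and -1.77 ± 0.21 (adjusted p = 0.00262), and ETFA, which feeds electrons from fatty acid oxidation, at 0.88 ± 0.24 (adjusted p = 0.0411). The 4 lower transcription and replication genes included the helicase TWNK (-1.84 ± 0.28, adjusted p = 0.00568) and the polymerase POLRMT (-1.17 ± 0.20, adjusted p = 0.00796). Under FoxO1 alone no gene of these lists was called.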

How the data were processed

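Total RNA from 6 engineered lines with and without 4OHT was measured on 12 arrays. The authors deposited intensity values per probe set on a linear scale, made with MAS5 per the submitters' processing notes, with its version and scaling target not given in the sources used here. Genes were named through the platform annotation and RefSeq symbols. Of 54675 probe sets 41091 had a single symbol.

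Values were quantile-normalised on the log2 scale, raised to the 20th percentile (intensity 18, log2 4.17) where lower, and reduced to the probe set with the highest mean per gene. Genes reaching the median of 2 or more arrays, 14283 of 19775, entered limma 3.58.1 (R 4.3.3). The 6 responses were fitted with construct and cell line as terms (2 residual degrees of freedom, prior variance following the mean level, 5.46 prior degrees of freedom), and vehicle levels by cell line (4 residual degrees of freedom). The line difference in the FoxO response had its own fit, by cell line and by FoxO or EV, without separating the isoforms. It had 2 residual and 3.63 prior degrees of freedom. Tests are two-sided, Benjamini-Hochberg adjusted over all genes tested, with a threshold of 0.05. Errors after ± are limma standard errors. Scripts were tested on simulated data. Precision is limited by there being 1 array per combination.

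The members, lists and tests were chosen with earlier results of these data known. Named genes are those past the threshold (up to 10 each way), the highest and lowest of each complex, isoform pairs, the SDH genes, CYC1 and ATP5IF1, and listed partner genes. NDUFA8's promoter, the printed motifs, the comparison with bright genes and 2 alternatives (spike-in scaling and the FoxO3 4OHT arrays) were chosen after values were seen. Other alternatives changed scaling, floor, filter, probe set choice, prior variance, model terms and the arrays included.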

Additional observations from a re-analysis of the deposited data

Results flagged for a closer look

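The NDUFB and NDUFC genes of complex I had a median FoxO minus EV response above 0 in both RCC4 comparisons (0.10 for FoxO1, 0.08 for FoxO3) and below 0 in both UMRC2 comparisons (-0.09 and -0.06), a gap of 0.16 on the log2 scale. The difference of medians was not tested, and the 2 comparisons within a cell line share its EV arrays. None of the 12 genes was called for a difference between the lines, in the separate fit that counts isoform differences as error.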

How the results depend on the processing

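For FoxO against EV, where 2 subunits were called, 0 were called with the values as deposited, with median scaling, without the filter, with probe sets averaged per gene and with a constant prior variance, and 1 with spike-in scaling; leaving out pairs gave 0 to 4. For FoxO3 against EV, with 5 called, the deposited values, no filter and a constant prior variance gave 0, median scaling 1, and leaving out pairs 0 to 8. FoxO3 against FoxO1 had 1 with spike-in scaling and 0 to 1 when pairs were left out. The share of all genes called moved too. For FoxO against EV it was 1.29% as deposited, 6.76% with median scaling and 3.38% with mean probe sets, against 7.81%. For FoxO3 against EV it was 4.08%, 15.4% and 11.4%, against 16.6%. With no filter or a constant prior variance 0 of all genes were called for FoxO against EV (3405 and 2731 with an unadjusted p under 0.05). The same held for FoxO3 against EV (4284 and 3700). RCC4 against UMRC2 gave 18 with the 4OHT arrays. Complex medians (I to V) for FoxO against EV were -0.19, -0.41, -0.29, -0.13 and -0.28 as deposited; complex I was 0.018 with median scaling, 0.13 with mean probe sets and 0.009 with spike-in scaling, and complex III was -0.16 with mean probe sets. For RCC4 against UMRC2 they were 1.15, 1.17, 1.52, 1.15 and 1.14 as deposited and 0.51, 0.53, 0.88, 0.50 and 0.49 with median scaling; mean probe sets gave 0.26, 0.25, 0.55 and 0.29 for I, II, III and V, and spike-in scaling 0.32 and 0.29 for II and V. Lower calls that turned positive as deposited were ATP5F1D (0.19), ATP5F1A (0.53), NDUFB7 (0.30), NDUFA6 (0.53), COX8A (0.70), UQCR11 (0.73), UQCR10 (0.76), NDUFS4 (0.58) and NDUFAB1 (0.73); with median scaling COX8A (0.06), UQCR11 (0.084), UQCR10 (0.11) and NDUFAB1 (0.084); and with mean probe sets ATP5F1A (0.55). The cause was not tested. The deposited values carry the arrays' separate levels. Where a pair is left out, the lone pair of its construct is assumed to vary like the others. Each response pairs the vehicle and 4OHT arrays of 1 engineered line, while the labels give no replicate numbers to pair samples further; with construct as a block, RCC4 against UMRC2 gave 57 called subunits against 56. The other alternatives run moved no count of called subunits by over 1.5 times.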
